A study of Homo sapiens with 8 samples.

Results

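The genes described here encode MHC class I molecules and the machinery that loads them with peptide. They are 9 of the 60564 genes analysed: HLA-B, HLA-C, HLA-E, HLA-F, B2M, TAP1, TAP2, TAPBP and NLRC5. They were matched by symbol, and the set was chosen by results of the comparison described here, in which these genes were lower. Their own levels and log2 changes are therefore given as a description, with no test. All 9 were among the 16884 genes with enough counts to test. Polyadenylated RNA was sequenced from AB8/13, a conditionally immortalised human podocyte line, in 8 libraries. The 4 control libraries came from cells transfected with non-targeting shRNA, and the 4 ATOH8 knockdown libraries from cells transfected with shRNA against ATOH8, a helix-loop-helix transcription factor gene. Both groups carried an shRNA, had grown at 33 °C and had then differentiated for 5 days at 37 °C. Neither the shRNA sequences nor their number is stated. It is also not stated whether the libraries of a group came from separate cultures or transfections. A p-value here sets the difference between the groups against the spread of these libraries, and that spread may be technical.

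Total counts ran from 21108695 to 27109043 per library. ATOH8 (ENSG00000168874.13) was at 6.56, 6.004, 5.80 and 4.97 CPM (read counts scaled to library size, after edgeR's trimmed-mean correction, TMM) in the control libraries and at 2.19, 2.79, 2.63 and 2.11 CPM in the knockdown libraries. It was lower in 4 of 4 knockdown libraries than in any control, with a log2 change of -1.26 (SE 0.127, edgeR quasi-likelihood adjusted p = 1.78e-09). The podocyte gene NPHS1, which encodes the slit diaphragm protein nephrin, was at a mean of 0.0187 CPM in control against 0.166 CPM in knockdown libraries. WT1, a podocyte transcription factor, was detected at 5.61 ± 0.526 CPM in control (SD, n = 4) and 4.95 ± 0.551 CPM in knockdown libraries.

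MHC class I molecules display peptides from inside the cell to CD8+ T cells and natural killer cells. A polymorphic heavy chain pairs in the endoplasmic reticulum with the light chain B2M, and the TAP transporter, built from TAP1 and TAP2, pumps in peptides that the proteasome has cut. Tapasin, the product of TAPBP, holds the empty heavy chain next to TAP until a peptide fits. Transcription of these genes is induced by interferons and by NF-kB, and NLRC5 is a transactivator that acts on a shared promoter module of class I genes together with RFX, CREB/ATF and NF-Y factors. Podocytes carry class I molecules, as nearly all nucleated cells do.

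The promoters are shown because class I genes are known to share control elements. Of the 9, 7 had an entry in the RefSeq promoter table (GRCh38.p14), and HLA-E and NLRC5 did not. The 250 bases before each annotated start were searched on both strands for the interferon regulatory factor word AANNGAAA, the CRE half-site TGACG, the CCAAT box and an NF-kB motif. Capitals mark the matches, each stretch runs 5′ to 3′ on the gene's strand, and neighbouring matches of a single motif can overlap. The stretches lie at chr6:31357223-31357364 (HLA-B, minus strand), chr6:31272136-31272292 (HLA-C, minus), chr6:29723270-29723389 (HLA-F, plus), chr15:44711367-44711480 (B2M, plus), chr6:32853759-32853954 (TAP1, minus), chr6:32838762-32838809 (TAP2, minus) and chr6:33314079-33314142 (TAPBP, minus).
HLA-B: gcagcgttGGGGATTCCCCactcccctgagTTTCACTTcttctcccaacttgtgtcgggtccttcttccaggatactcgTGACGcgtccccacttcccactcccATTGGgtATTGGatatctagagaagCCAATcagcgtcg
HLA-C: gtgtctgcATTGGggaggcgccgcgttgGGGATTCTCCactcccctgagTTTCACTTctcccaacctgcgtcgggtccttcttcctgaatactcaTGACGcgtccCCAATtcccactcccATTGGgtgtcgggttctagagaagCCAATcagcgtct
HLA-F: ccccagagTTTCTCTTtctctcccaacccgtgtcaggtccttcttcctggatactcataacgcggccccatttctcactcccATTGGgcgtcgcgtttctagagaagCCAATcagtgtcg
B2M: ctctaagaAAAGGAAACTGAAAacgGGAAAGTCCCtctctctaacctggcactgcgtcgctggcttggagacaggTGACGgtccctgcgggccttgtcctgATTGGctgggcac
TAP1: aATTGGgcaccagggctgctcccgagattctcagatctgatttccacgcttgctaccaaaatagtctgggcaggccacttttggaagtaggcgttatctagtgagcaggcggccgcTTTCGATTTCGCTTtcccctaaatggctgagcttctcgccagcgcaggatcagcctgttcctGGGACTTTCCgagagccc
TAP2: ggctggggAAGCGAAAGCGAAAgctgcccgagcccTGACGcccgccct
TAPBP: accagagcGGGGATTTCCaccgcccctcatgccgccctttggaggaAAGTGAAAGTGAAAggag

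The interferon regulatory factor word was found in 7 of the 7 genes and in 20.3% of all 35116 promoter windows of this length. In the heavy chain genes it lay on the reverse strand 155 (HLA-B), 151 (HLA-C) and 156 (HLA-F) bases before the start. B2M, TAP1, TAP2 and TAPBP each had it in 2 overlapping copies. The NF-kB motif was present in HLA-B, HLA-C, B2M, TAP1 and TAPBP, against 5.21% of all windows. The CRE half-site was present in HLA-B, HLA-C, B2M and TAP2 (21.2% of all windows), and the CCAAT box in HLA-B, HLA-C, HLA-F, B2M and TAP1 (32.0%). A CRE half-site followed within 60 bases by a CCAAT box, the order in which these elements stand in the class I module, was found in HLA-B, HLA-C and B2M and in 2.59% of all windows. From the half-site to the CCAAT box on the reverse strand the distance was 25 and 32 bases in HLA-B, which has 2 such boxes, 25 bases in HLA-C and 26 bases in B2M. HLA-B, HLA-C and HLA-F are paralogs with similar promoters, so their matches are not independent of each other. A second annotated start of TAP1 had no match to any of the 4 motifs. A match describes letters and not a site in use, and the libraries hold no measurement of binding.

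**Figure D1:**
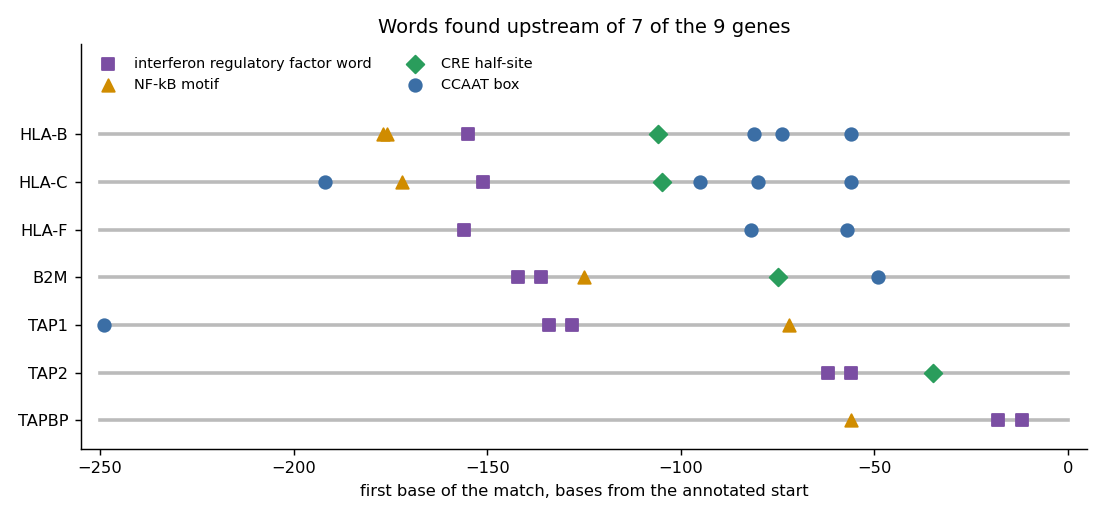
Positions of the 4 motifs in the 250 bases before the annotated start of 7 genes (x axis, first base of each match in bases from the start; 1 line per gene; symbols, motifs; the TAP1 window without matches is not drawn). The interferon regulatory factor word is on every line, and HLA-B, HLA-C and B2M hold a CRE half-site followed by a CCAAT box.

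All 9 genes had a lower fitted mean in the knockdown libraries, with log2 changes from -0.996 (HLA-B) to -0.18 (NLRC5) and a median of -0.38, beside a median of -0.00072 over all 16884 genes. In 8 of the 9, every knockdown library lay below every control library, and this was so for 23.2% of all tested genes. Among all tested genes 25.2% were called higher and 25.9% lower by edgeR, at an adjusted p under 0.05. Since this comparison chose the members, nothing is read from their count. The 3 classical or related heavy chain genes HLA-B, HLA-C and HLA-F were lower by at least 1.5-fold, and none of the 9 was lower by 2-fold. In RNA from whole cultures, fewer cells that express a gene and less RNA per cell cannot be told apart.

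**Figure D2:**
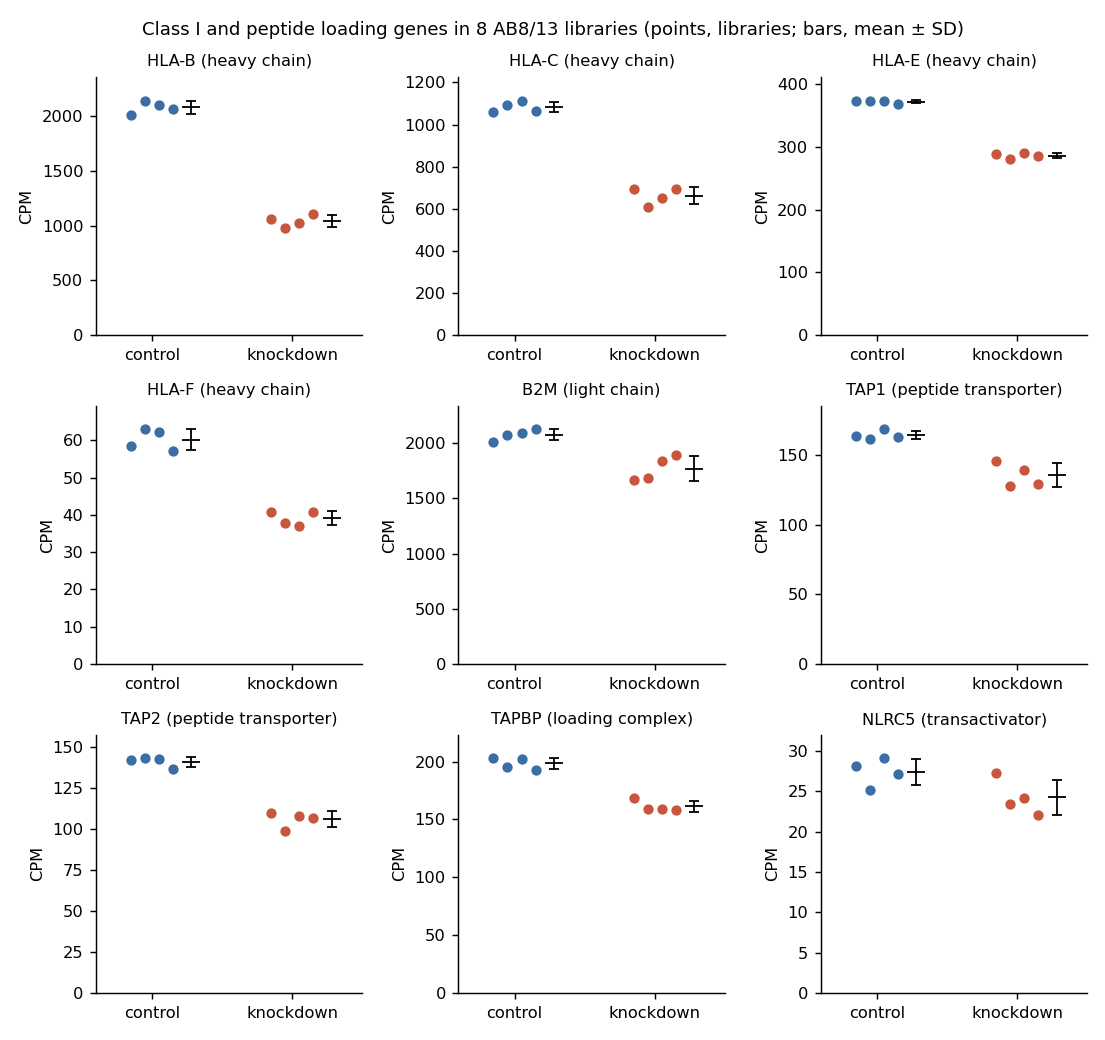
CPM of the 9 genes in each library (y axis, CPM from 0, with its own scale per gene; points, the 4 libraries of a group in the order of their replicate numbers; bars, mean ± SD). The groups are separate in 8 panels, and the NLRC5 groups overlap.

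HLA-B (ENSG00000234745.11), a classical heavy chain that presents peptides to CD8+ T cells, had the lowest log2 change of the 9. It was at 2006, 2139.7, 2102 and 2063 CPM in the control libraries and at 1062, 978, 1020.4 and 1106 CPM in the knockdown libraries. The lowest control library was 1.81 times the highest knockdown library. The means were 2078 ± 57.0 and 1042 ± 55.2 CPM (SD, n = 4 each), which left 50.1% of the control level (log2 -0.996, SE 0.0354). Of all tested genes, 1.34% had a lower log2 change than HLA-B. The counts behind these values ran from 23705 to 57020.

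HLA-C (ENSG00000204525.16), a classical heavy chain that is also the main ligand of the KIR receptors of natural killer cells, was at 1062, 1092, 1114 and 1065 CPM in the control libraries and 694, 608, 652 and 696 CPM in the knockdown libraries. Again the groups were apart, with knockdown replicate 2 the lowest library. The log2 change was -0.71 (SE 0.0367), and 61.2% of the control level remained. HLA-F (ENSG00000204642.14), a non-classical heavy chain found at the surface also without peptide, was at 58.6, 62.9, 62.2 and 57.0 CPM in control and 40.9, 37.9, 37.1 and 40.6 CPM in knockdown libraries. Its log2 change was -0.62 (SE 0.0442), between those of HLA-C and TAP2.

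HLA-E (ENSG00000204592.9), the non-classical heavy chain that shows leader peptides of other class I chains to the receptor NKG2A, was at 373, 374, 372 and 368 CPM in the control libraries and 288, 280.1, 290.3 and 285 CPM in the knockdown libraries. Replicates of HLA-E differed least among the 9 genes, with coefficients of variation of 0.650% in control and 1.54% in knockdown libraries. It stayed at 76.9% of the control level (log2 -0.38, SE 0.0290). Of the 4 heavy chain genes in the set, HLA-E thus had the smallest log2 change.

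HLA-G, a non-classical heavy chain known from the placenta, is not in the set. It fell from 11.2 ± 1.03 to 8.10 ± 0.791 CPM (edgeR adjusted p = 4.29e-05, log2 -0.46, SE 0.0857). Class I genes are close copies of each other, and how reads that match several genes were counted is not stated in the sources used. Of all 100-base words in the GENCODE 29 transcripts of HLA-B, 12.9% also occurred in another gene's transcripts, against 0.126% for HLA-C, 0.491% for HLA-E and 15.3% for HLA-F. With 50-base words the shares were 17.8% for HLA-B, 5.70% for HLA-C, 4.87% for HLA-E, 21.6% for HLA-F and 4.73% for TAPBP, and the read length is not stated. At 100 bases HLA-B shared words only with AL671883.2, and HLA-F chiefly with AL645939.1 and HLA-F-AS1. At that length TAP1 (7.26%) shared words with PSMB8-AS1 and TAP2 (30.3%) with AL669918.1. TAP1 (9.78%) and TAP2 (31.3%) also shared words with each other at 50 bases. At 50 bases HLA-B also shared words with HLA-C and HLA-H, while B2M and NLRC5 shared none at either length. A sum over heavy chain genes does not depend on how reads were split among them. It does not cover reads shared with AL671883.2, AL645939.1 or HLA-F-AS1.

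The counts of 18 class I heavy chain rows were summed, 6 of them protein-coding genes and 12 pseudogenes and fragments, of which 3 were at 0 counts in every library. The sum was 4969.9 ± 98.6 CPM in control libraries and 2952 ± 142 CPM after knockdown (SD, n = 4 each), a log2 difference of -0.75. The lowest control library reached 4856 CPM and the highest knockdown library 3079 CPM, so the groups were apart. Pseudogene rows behaved unevenly: HLA-H had a log2 change of -0.77, HLA-J of -0.91 and HLA-L of -0.77, while the groups of HLA-K and HLA-V overlapped. Heavy chain rows and B2M together took 0.675% to 0.713% of all counts in control and 0.449% to 0.499% after knockdown.

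The ratio between heavy chains also differed between the groups. For each count of HLA-C there were 1.89 to 1.96 counts of HLA-B in the control libraries and 1.53 to 1.61 in the knockdown libraries, so the ratio was lower in every knockdown library. HLA-B made up 43.1% to 44.1% of protein-coding heavy chain counts in control libraries and 36.3% to 37.5% after knockdown. These values rest on genes chosen in this comparison and carry no test, and ambiguous reads could move them.

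B2M (ENSG00000166710.20), the invariant light chain of all class I molecules, lies outside the MHC, on chromosome 15. It was at 2006, 2075, 2096 and 2123 CPM in the control libraries and 1662, 1683, 1835 and 1893 CPM in the knockdown libraries. The gap was narrow, with the lowest control library 1.06 times the highest knockdown library, and the spread was 50.2 CPM in control libraries and 113 CPM after knockdown (SD, n = 4 each). B2M remained at 85.2% of the control level (log2 -0.23, SE 0.0373). For each B2M count there were 2.22 to 2.34 protein-coding heavy chain counts in control libraries and 1.52 to 1.76 after knockdown, so heavy chain transcripts were lower against their light chain in every knockdown library.

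**Figure D3:**
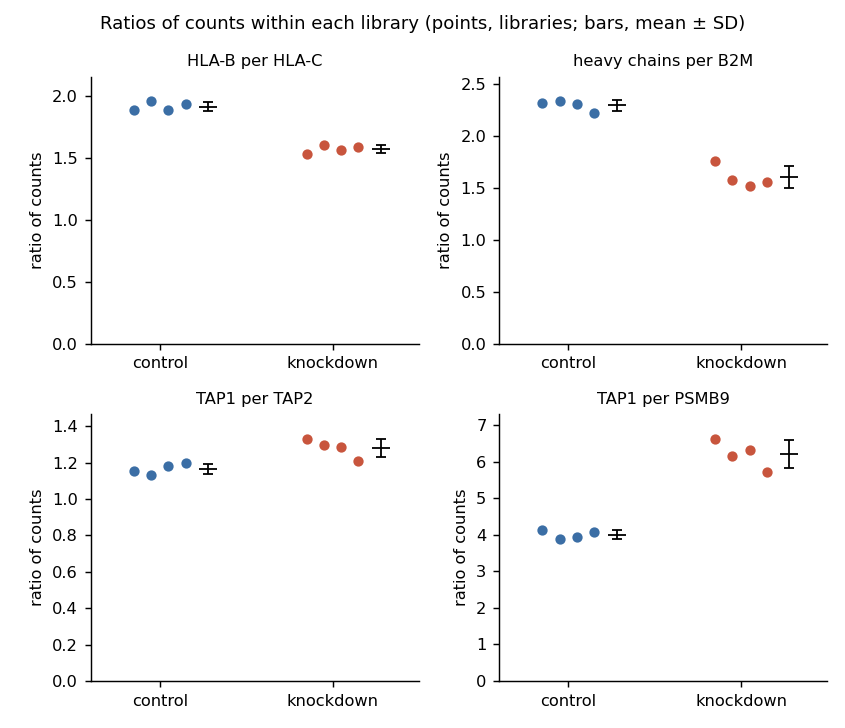
Ratios of counts within each library (y axis, counts of the first gene per count of the second, from 0; points, libraries; bars, mean ± SD). In the 4 panels the groups are apart, with HLA-B per HLA-C and heavy chains per B2M lower, and TAP1 per TAP2 and TAP1 per PSMB9 higher in knockdown libraries.

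TAP1 (ENSG00000168394.11) and TAP2 (ENSG00000204267.15) encode the subunits of the peptide transporter. TAP1 was at 163, 162, 168 and 163 CPM in the control libraries and 146, 128, 139 and 129 CPM in the knockdown libraries (log2 -0.28, SE 0.0373). TAP2 was at 142, 143, 143 and 136 CPM in control and 109.6, 98.6, 108 and 107 CPM in knockdown libraries (log2 -0.41, SE 0.0354). Neither gene had overlapping groups, and TAP2 was the lower of the pair against its controls. The libraries held 1.13 to 1.20 TAP1 counts per TAP2 count in control and 1.21 to 1.33 in knockdown. Ambiguous reads could move this ratio too. TAPBP (ENSG00000231925.11), the tapasin gene, was at 203, 196, 202 and 193 CPM in control libraries and 168, 159, 159 and 158 CPM after knockdown (log2 -0.30, SE 0.0323). The log2 changes of TAPBP and TAP1 were less than 1 SE apart, and their ratio of counts overlapped between the groups (0.807 to 0.846 and 0.803 to 0.873).

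NLRC5 (ENSG00000140853.15), the class I transactivator on chromosome 16, had the smallest log2 change of the 9. It was at 28.2, 25.2, 29.1 and 27.2 CPM in the control libraries and 27.3, 23.5, 24.2 and 22.01 CPM in the knockdown libraries. Knockdown replicate 1 lay above 2 of the 4 controls, so the groups overlapped. The means were 27.4 ± 1.66 and 24.2 ± 2.21 CPM (SD, n = 4 each; log2 -0.18, SE 0.0594). Of all tested genes, 26.5% had a lower log2 change.

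**Figure D4:**
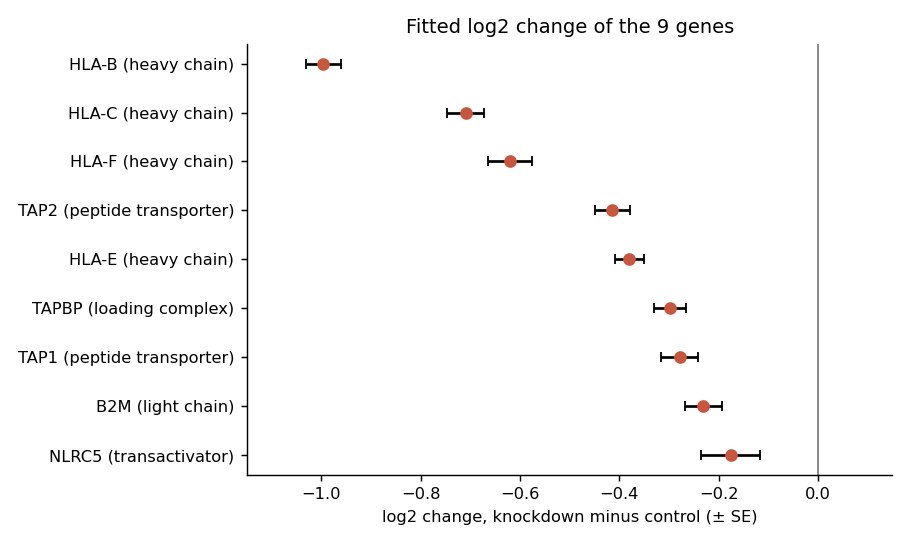
Fitted log2 change of the 9 genes, knockdown minus control (x axis, log2; points, edgeR estimate; bars, ± SE). The 4 heavy chain genes run from -0.996 to -0.38, and the light chain and NLRC5 stand closest to 0.

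Levels were compared between genes as CPM per kilobase of the longest principal GENCODE 29 transcript. In the control libraries HLA-B stood at 1343 ± 36.9, B2M at 1217 ± 29.5, HLA-C at 705 ± 16.0, HLA-E at 143 ± 0.929 and TAPBP at 105 ± 2.57 CPM per kilobase (SD, n = 4). TAP2 at 56.4 ± 1.24 and TAP1 at 55.5 ± 0.965 did not differ beyond their spread on this scale, and HLA-F at 36.8 ± 1.72 and NLRC5 at 4.02 ± 0.243 CPM per kilobase closed the order. In the knockdown libraries B2M at 1037 ± 66.5 CPM per kilobase was above HLA-B at 673 ± 35.7. Which of the pair leads the controls depends on the transcript length, since with the shortest principal transcript B2M stood at 2201 ± 53.2 CPM per kilobase. The order of other genes depends on it too: per kilobase of all exons joined, TAP1 stood at 34.2 ± 0.594 and TAP2 at 22.04 ± 0.483 CPM, and HLA-C at 432 ± 9.80 CPM was above B2M at 341 ± 8.26 CPM. The least abundant of the 9 on this scale was also the one with the smallest log2 change, while the abundant genes spanned log2 changes from -0.996 to -0.23.

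Within groups the 9 genes varied little. Coefficients of variation ran from 0.650% to 6.05% in control and from 1.54% to 9.12% in knockdown libraries, and were larger in knockdown for 9 of 9 genes, as for 55.3% of all tested genes. Knockdown replicate 2 was the lowest of its group for 5 of the 9 and knockdown replicate 1 the highest for 5. Library levels were also compared as profiles, meaning log2 CPM over the 8 libraries with the gene's mean removed. From the mean profile of the 9, TAP2 was nearest (root mean square distance 0.0302 log2 units) and HLA-B farthest (0.273). Among 12136 genes whose mean log2 CPM was 2 or more, members left out, the 5 nearest profiles belonged to ADAR (0.0297), LGALS3BP (0.0306), ENOX2 (0.0313), FKBP9 (0.0324) and EIF2AK2 (0.0332). ADAR edits double-stranded RNA and EIF2AK2 is a kinase activated by it, and LGALS3BP is a secreted glycoprotein. ADAR was at 507, 491, 506 and 476 CPM in control and 362, 332, 360.2 and 355 CPM in knockdown libraries. All 5 had groups that did not overlap, which the choice by profile fixed, and their log2 changes ran from -0.49 (ADAR) to -0.41 (EIF2AK2). These distances take in the difference between the groups, by which the members were chosen. They therefore do not show that genes vary together within a group.

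Other genes of antigen presentation were counted in 7 lists, which were chosen with earlier results of these data known. Of 91 listed genes 80 could be tested, and by edgeR 17 rose, 40 fell and 23 were not called (median log2 change -0.10). Over all 16884 genes 25.2% rose and 25.9% fell, with a median of -0.00072. No test of a list was made.

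**Figure D5:**
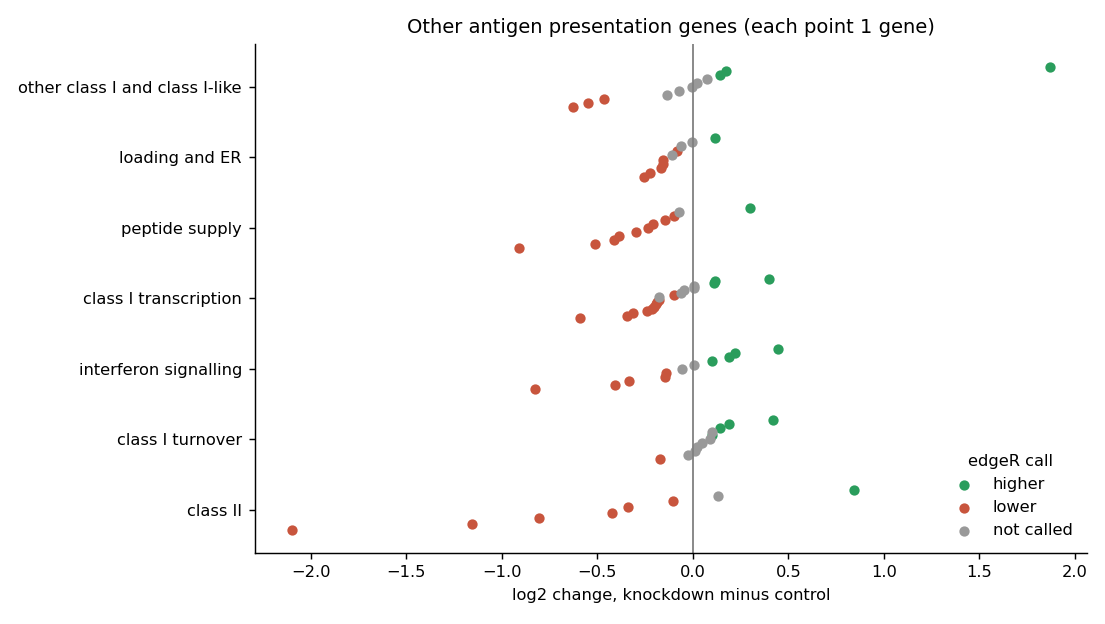
Log2 change, knockdown minus control, of the 80 tested genes in the 7 lists (x axis, log2; each point 1 gene; rows, lists; colours, edgeR call at an adjusted p of 0.05). Peptide supply has 9 lower points and 1 higher, and turnover has 1 lower and 4 higher.

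Of 11 genes for peptide supply 9 fell, 1 rose and 1 was not called (median log2 change -0.23). PSMB9, an interferon-induced catalytic subunit of the immunoproteasome, was at 39.6, 41.7, 42.8 and 40.1 CPM in control and 22.02, 20.7, 22.04 and 22.6 CPM in knockdown libraries. It fell in 4 of 4 libraries (log2 -0.91, SE 0.0478, edgeR adjusted p = 1.79e-15). The other catalytic subunits of the immunoproteasome fell too, PSMB8 by 0.41 (SE 0.0449, edgeR adjusted p = 4.05e-08) and PSMB10 by 0.39 on the log2 scale (SE 0.0509, edgeR adjusted p = 2.47e-07). PSMB9 and TAP1 are known to be transcribed from a shared stretch of promoter in opposite directions. The libraries held 3.88 to 4.13 TAP1 counts per PSMB9 count in control and 5.71 to 6.63 in knockdown, so the neighbours differed in size of change. Reads that match TAP1 and other genes could move this ratio. LAP3, a cytosolic leucine aminopeptidase, fell from 119.8 ± 7.00 to 84.0 ± 6.67 CPM (edgeR adjusted p = 8.26e-06, log2 -0.51, SE 0.0573), and NPEPPS, an aminopeptidase that trims and destroys cytosolic peptides, rose from 164 ± 3.44 to 201 ± 2.78 CPM (edgeR adjusted p = 2.88e-09, log2 0.30, SE 0.0308).

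Of 10 genes for loading and quality control in the endoplasmic reticulum, 6 fell, 1 rose and 3 were not called (median log2 change -0.13). The chaperones CALR and CANX, which hold heavy chains during folding, fell by 0.17 (SE 0.0295, edgeR adjusted p = 2.54e-05) and 0.23 on the log2 scale (SE 0.0307, edgeR adjusted p = 4.05e-07). ERAP1 and ERAP2, which trim peptides to length, fell by 0.15 (edgeR adjusted p = 0.000102) and 0.26 (edgeR adjusted p = 0.00121). PDIA3, the disulfide isomerase of the loading complex, was at 395 CPM in both groups (log2 -0.0021, SE 0.0299, edgeR adjusted p = 0.96), and the sign of that change turned with other scalings. TAPBPL, a tapasin relative that edits peptides, was at 8.01 and 7.43 CPM (edgeR adjusted p = 0.317). The one gene that rose was HM13, the signal peptide peptidase that releases leader peptides for HLA-E (log2 0.12, SE 0.0321, edgeR adjusted p = 0.0035).

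Among 18 transcription factors and regulators known to act on class I genes, 10 fell, 3 rose and 5 were not called. The number that rose was 1 with the DESeq2 Wald test and 1 without knockdown replicate 1 or 4 or without control replicate 1, 2 or 3. IRF9 lost its call in 7 of 15 other settings and USF2 in 8. The NF-kB subunit NFKB1 fell by 0.31 (SE 0.0339, edgeR adjusted p = 7.62e-09), and RELA had a log2 change of 0.00348 (edgeR adjusted p = 0.946). RFX5, a subunit of the RFX complex on which NLRC5 assembles, fell by 0.21 on the log2 scale (SE 0.0335, edgeR adjusted p = 7.57e-06). NF-Y subunits did not share a direction: NFYA fell by 0.22 and NFYB by 0.18, and NFYC rose by 0.40 (edgeR adjusted p = 8.88e-05, 0.0082 and 7.35e-08). IRF1, an interferon-induced activator of class I genes, was at 39.6, 40.7, 39.5 and 40.1 CPM in control and 38.1, 37.4, 36.7 and 36.9 CPM in knockdown libraries. Its log2 change of -0.10 had an edgeR adjusted p of 0.0455, and in 13 of 15 other settings the call was lost (0.0527 to 0.149).

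The list of interferon receptors and signalling had 5 lower, 4 higher and 2 uncalled genes. Both chains of the interferon-gamma receptor fell, IFNGR1 by 0.41 (SE 0.0464, edgeR adjusted p = 1.68e-08) and IFNGR2 by 0.33 on the log2 scale (SE 0.0494, edgeR adjusted p = 1.88e-06). USP18, an interferon-induced brake on the type I receptor, fell from 41.1 ± 1.20 to 23.3 ± 3.52 CPM (edgeR adjusted p = 1.2e-05, log2 -0.82, SE 0.0864). The kinase TYK2 rose by 0.22 (edgeR adjusted p = 4.37e-06) and SOCS1, an inhibitor of JAK kinases, by 0.45 on the log2 scale (edgeR adjusted p = 0.00237). Interferon genes themselves, in a list of 21 added after the data had been seen, had no member with enough counts to test. Of these, 13 were at 0 counts in every library, IFNB1 had 0 to 5 counts, and the highest count in any library was 13, for IFNE. IFNG had 1 count in 1 library.

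Of 11 genes for removal of class I molecules from the surface or the endoplasmic reticulum, 4 rose, 1 fell and 6 were not called (median log2 change 0.09). MARCHF4, a membrane ubiquitin ligase that sends class I to lysosomes, was at 28.9, 27.4, 28.4 and 25.3 CPM in control and 39.9, 35.9, 35.8 and 35.5 CPM in knockdown libraries (log2 0.42, SE 0.0514, edgeR adjusted p = 7.21e-08). SUSD6 and TMEM127 act together in class I degradation. SUSD6 rose by 0.19 (SE 0.0327, edgeR adjusted p = 1.43e-05), whereas TMEM127 fell by 0.17 on the log2 scale (SE 0.0344, edgeR adjusted p = 0.000132).

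Of 16 other class I and class I-like genes 11 could be tested, and 3 rose, 3 fell and 5 were not called. Besides HLA-G, HFE, a class I-like regulator of iron uptake that binds B2M, fell from 16.6 ± 1.01 to 10.8 ± 1.26 CPM (edgeR adjusted p = 3.81e-08, log2 -0.63, SE 0.0745). ULBP1, a stress ligand of the activating natural killer receptor NKG2D, was at 2.29, 1.99, 1.95 and 1.98 CPM in control and 6.62, 7.50, 8.01 and 7.92 CPM in knockdown libraries. It rose in 4 of 4 (log2 1.87, SE 0.116, edgeR adjusted p = 6.53e-14). The other NKG2D ligands with enough counts were not called: MICA at a log2 change of 0.07, MICB at -0.07, ULBP2 at -0.01 and ULBP3 at -0.14 (edgeR adjusted p = 0.21, 0.137, 0.94 and 0.179). MR1, which presents vitamin metabolites and needs B2M, rose by 0.17 on the log2 scale (SE 0.0408, edgeR adjusted p = 0.000804).

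MHC class II, the pathway for peptides taken up from outside, had 8 of 14 genes with enough counts, of which 6 fell, 1 rose and 1 was not called. CTSS, the cathepsin that trims the invariant chain, was at 47.3, 45.1, 46.2 and 48.4 CPM in control and 20.4, 20.3, 20.4 and 22.6 CPM in knockdown libraries (log2 -1.16, SE 0.0482, edgeR adjusted p = 8.58e-18). The peptide exchange genes moved apart, with HLA-DMB lower (log2 -2.10, SE 0.296, edgeR adjusted p = 9.92e-07; 1.69 and 0.394 CPM) and HLA-DOA higher (log2 0.84, SE 0.0606, edgeR adjusted p = 3.41e-12; 17.5 and 31.4 CPM). The class II transactivator CIITA had too few counts to test, with 0.225, 0.300, 0.380 and 0.504 CPM in control and 0.172, 0.118, 0.215 and 0.0398 CPM in knockdown libraries, and HLA-DRA was at 0 counts throughout. Class I and class II are expressed at high level in leukocytes and endothelium, so markers of both were counted. Of 19 leukocyte markers 6 could be tested, 4 rose and 0 fell, beside 25.2% of all tested genes that rose. Their summed level was 197 to 214 CPM in control and 235 to 250.1 CPM in knockdown libraries, and most of it came from NCAM1 (means of 121 and 132 CPM) and CD68 (79.3 and 105.8 CPM), which other cell types also express. LAPTM5 (0.822 and 2.50 CPM) and ITGAM (0.190 and 1.14 CPM), the other markers that rose, were at low levels. Their log2 changes were 1.53 to 1.76 and 2.42 to 2.71 when each library was left out in turn. MS4A1, FCGR3A, TYROBP and NKG7 were at 0 counts, and PTPRC was at means of 0.0284 and 0.00982 CPM. Of 15 endothelial markers 7 could be tested, 5 rose and 0 fell, with a summed level of 39.8 to 43.1 and 60.5 to 63.1 CPM. Most of that sum came from EHD3 (means of 24.7 and 34.8 CPM) and ROBO4 (9.97 and 9.93 CPM). TIE1 and SOX17 also rose, with log2 changes of 2.51 to 2.80 and 0.76 to 0.93 when each library was left out in turn. EMCN was at 0 counts and PECAM1 at means of 0.0119 and 0 CPM. Both sums were higher in the knockdown libraries, in which the 9 genes were lower, and their part in the result was not tested.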

How the data were processed

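Per the labels' protocols, directional poly(A) libraries were made from RNA of integrity number above 7.0. The authors deposited whole-number values per gene and library, which were treated as raw read counts. The build hg19 and the tools STAR, featureCounts, FastQC and DESeq2 are named, per the submitters' processing notes; their versions, the annotation, strand setting and multi-mapping are not stated. From 60609 rows, 1 with a missing cell and 44 Y-linked pseudoautosomal copies at 0 were left out. A gene name table gave symbols for 60295 of 60564 genes, and the others were left without a symbol. GENCODE 29 gave transcript sequences and lengths, and describes GRCh38. The only coordinates printed are those of the promoter stretches, which are on GRCh38.p14 and not on the hg19 build named for the counts.

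Genes passing filterByExpr were scaled by TMM and compared with edgeR 4.0.16 (quasi-likelihood F test, robust; limma 3.58.1, R 4.3.3). Log2 changes are knockdown minus control, p-values are Benjamini-Hochberg adjusted over all tested genes with a threshold of 0.05, and CPM use TMM-scaled library sizes. The members and lists were chosen with earlier results of these data known. Genes to name were the 9 members, ATOH8, up to 3 higher and 3 lower genes per list by adjusted p, 15 class I genes always named, and the 5 nearest profiles; some are not reported here, and NFYA, NFYB, RELA, MICA, MICB, ULBP2, ULBP3 and class I pseudogenes were named after their values were seen. The fit was tested on simulated counts. The 12 library pairs within groups differed by more than sampling noise (chi-square per gene 1.89 to 4.42). Alternatives were the DESeq2 1.42.0 Wald test, other scalings and filters, a replicate block, and leaving out each library.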

Additional observations from a re-analysis of the deposited data

Results flagged for a closer look

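Of 172 groups of 4 libraries examined, 11 held a library far from the other 3, past Dixon's 95% limit; chance gives about 1 in 20. For the 9 genes these were TAP2, with control replicate 4 lowest at 136 CPM (others 142 to 143), and TAPBP, with knockdown replicate 1 highest at 168 CPM (others 158 to 159). Both stayed on their group's side of the gap. Among the other named genes, knockdown replicate 4 was highest for CTSS at 22.6 CPM and lowest for IER3, an early response gene of the MHC region, at 128 CPM. Knockdown replicate 1 was highest for MARCHF4 at 39.9 CPM. Control replicate 1 was highest for the podocyte marker KIRREL1 at 653 CPM and for ULBP1 at 2.29 CPM, and lowest for MARCHF8, another membrane ubiquitin ligase, at 34.4 CPM and for TAPBPL at 7.12 CPM. Control replicate 2 was highest for the leukocyte marker LAPTM5 at 1.09 CPM, and control replicate 4 lowest for NFYC at 25.1 CPM.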

How the results depend on the processing

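Under 15 other settings all 9 members kept a lower fitted mean. Leaving out each library in turn, the log2 change of HLA-B ran from -1.03 to -0.97, that of B2M from -0.27 to -0.20 and that of NLRC5 from -0.24 to -0.13. HLA-E moved by more than its replicate spread, to -0.35, with upper-quartile scaling, which shifts all genes. PDIA3, near 0, turned sign with the DESeq2 Wald test and DESeq2 size factors (0.0011 both), at least 1 CPM in 4 libraries (0.0049), total counts only (0.0092) and upper-quartile scaling (0.025), and ran from -0.015 to 0.014 when libraries were left out. Calls of IRF1, IRF9, PROCR, USF2 and RING1 were lost in some settings. Genes called higher and lower numbered 4816 and 3866 with upper-quartile scaling and 3850 and 3905 with DESeq2, beside 4253 and 4372. Correlations of deviations were 0.0014 to 0.057 between libraries with the same replicate number and -0.082 to 0.033 between the other control and knockdown libraries. These small values do not settle whether replicate numbers mark pairs. With the replicate block 4336 genes were called higher and 4466 lower. Of the 80 other pathway genes, 14 to 18 were called higher and 35 to 40 lower in any setting. The cause of these shifts was not tested. CIITA, the interferon genes and 5 class II chains (HLA-DRA, HLA-DRB1, HLA-DRB5, HLA-DQA1 and HLA-DQB1) had too few counts to test.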

Other observations

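Genes that neighbour the class I and TAP genes in the MHC were also counted. Of 28 tested neighbours, in a list that also holds PSMB8 and PSMB9, 9 fell, 4 rose and 15 were not called (median log2 change -0.04), beside 25.9% of all tested genes that fell and 25.2% that rose. Without knockdown replicate 1 or control replicate 2 the number that rose was 2, and with upper-quartile scaling it was 6. TNF, the inflammatory cytokine gene, was at 17.7, 14.97, 15.8 and 15.3 CPM in control and 9.29, 8.44, 10.4 and 8.64 CPM in knockdown libraries (log2 -0.80, SE 0.0761, edgeR adjusted p = 6.28e-10). IER3 fell by 0.46 on the log2 scale (SE 0.0320, edgeR adjusted p = 7.37e-13). FLOT1, which encodes a membrane raft protein, was at 53.0, 52.0, 54.7 and 60.7 CPM in control and 88.7, 81.7, 86.8 and 83.8 CPM in knockdown libraries (log2 0.63, SE 0.0432, edgeR adjusted p = 1.28e-12). DAXX, a histone chaperone gene, fell by 0.18 (edgeR adjusted p = 0.000171), and TUBB, BAG6 and CSNK2B had log2 changes of 0.05, 0.02 and 0.06 (edgeR adjusted p = 0.17, 0.6 and 0.124). DAXX, TUBB, BAG6 and CSNK2B were named after their values were seen.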
